A study of Mus musculus with 9 samples.

Results

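Molecular chaperones of the HSP70 class do not work alone, and 10 genes that steer them were followed here through disuse and renewed use of the mouse calf muscle. The 10 genes were picked by name, for what their products do, at a time when earlier results of these data were known, so their counts are not those of an unselected set. They are 8 DNAJ co-chaperones (Dnaja1, Dnaja2, Dnaja4, Dnajb1, Dnajb2, Dnajb4, Dnajb5 and Dnajb6), the HSP70 cofactor Bag3 and the transcription factor Hsf1. All 10 were found among the 55487 genes of the count table, and all 10 were among the 14851 genes that passed the filter on low counts.

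Gastrocnemius muscle was taken from wild-type mice labelled as male C57BL/6, a strain that the study's text gives as C57BL/6J. Control mice (n = 4) walked normally in their cages, Unloading mice (n = 2) had their hind legs lifted off the ground for 10 days, and Reloading mice (n = 3) went through the same unloading and were then back to normal cage activity for 1 day. In the study's methods the unloaded animals are called female, and no age is given for them. The labels name no transgene or drug in any group. Polyadenylated RNA of the whole muscle was sequenced, so each value is an average over fibres, vessels, connective tissue and resident immune cells.

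A DNAJ protein, also called HSP40 or J-protein, carries a J domain that makes HSP70 hydrolyse ATP and so clamp onto an unfolded client. Class A and class B members bind unfolded proteins themselves and hand them to HSP70, while class C members share little beyond the J domain and bring HSP70 to particular jobs or compartments. Nucleotide exchange factors such as BAG3 then let HSP70 release the client, and HSF1 is the regulator that switches many of these genes on when unfolded proteins build up. In striated muscle BAG3 is best known for sitting at the Z-disc, where it helps clear filamin damaged by mechanical tension through autophagy. HSF1 itself is controlled largely by the shape and phosphorylation of the protein, which RNA sequencing does not read.

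Each library held 9252443 to 19612101 read pairs assigned to genes, so that 1 pair was worth 0.0510 to 0.108 counts per 1000000 read pairs (CPM). All CPM values carry the trimmed mean of M-values (TMM) normalization of edgeR, which corrects for a few abundant genes taking up a library, with factors of 0.928 to 0.960 in Control and Unloading and of 1.11 to 1.13 in Reloading. All 7 muscle fibre markers were present, with a summed level of 178170 to 193599 CPM in Control, 186330 to 192244 CPM in Unloading and 129286 to 141423 CPM in Reloading. The 8 macrophage markers summed to 71.6 to 89.3 CPM, 74.4 to 74.9 CPM and 156 to 177 CPM in the same order, and the 4 smooth muscle markers to 41.4 to 47.2 CPM, 42.1 to 45.6 CPM and 97.3 to 113 CPM. The 5 endothelium markers summed to 118 to 142 CPM, 121 to 122 CPM and 215 to 265 CPM. The part of these shifts in the results below was not tested, and in whole muscle fewer cells of a type and less RNA per cell cannot be told apart. Control 2 and Reloading 1 held skin transcripts, with 1086 and 502 read pairs of Krt2, a keratin gene, where no other library had more than 3, and the counts of called genes are also given without this pair of libraries.

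The question of the main comparison was what changes when an unloaded muscle bears weight again. In Reloading against Unloading, 7 of the 10 genes were higher, 2 were lower and 1 did not pass the test. Among all 14851 tested genes 18.5% were higher and 19.0% were lower in the same comparison, so the share of higher genes among the 10 was well above that of the table, and the share of lower genes was close to it. The median log2 fold change of the 10 genes was 0.80, beside 0.03 for all tested genes. The gains were very unequal, from about 10-fold for Dnaja4 to 1.19-fold for Hsf1. Without Control 2 and Reloading 1, 6 genes were higher and 2 were lower, beside 2281 and 2347 of all 14765 genes then tested.

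**Figure D1:**
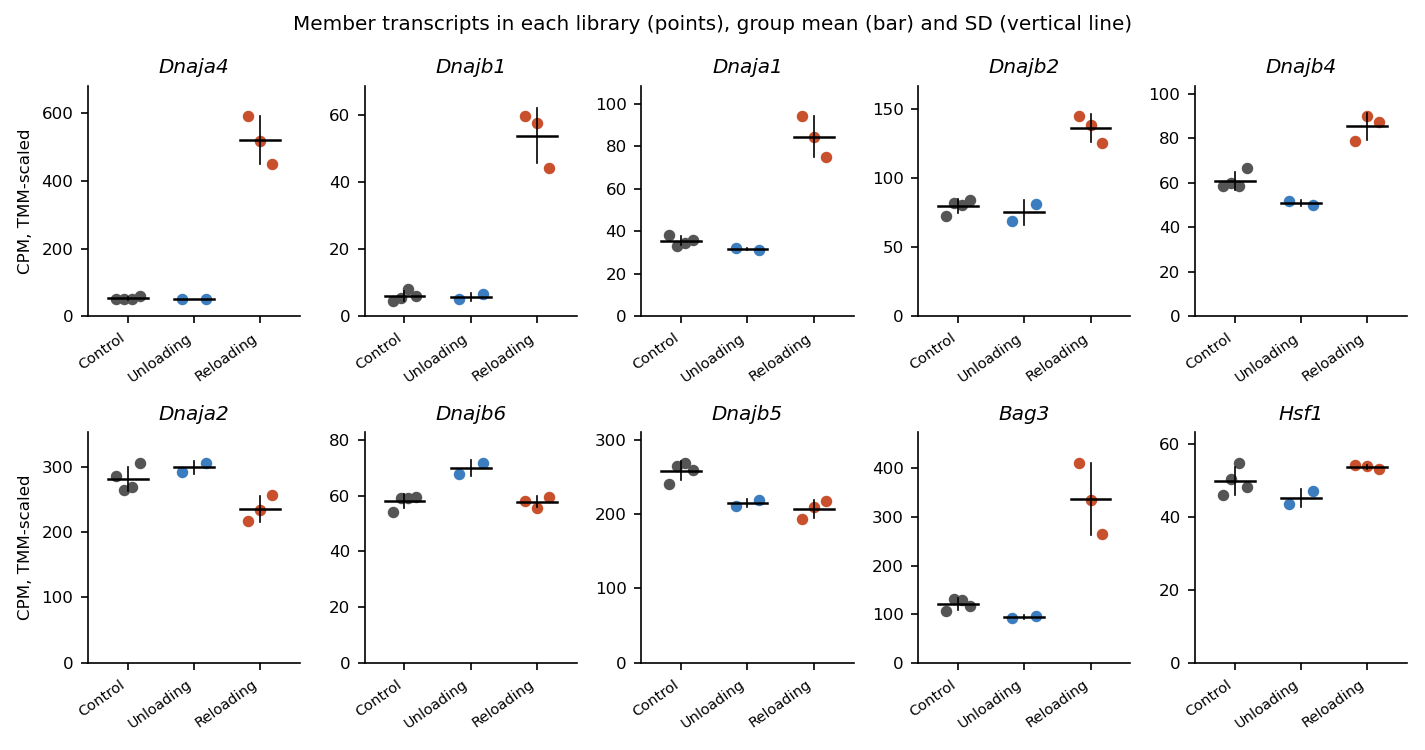
Level of each of the 10 genes in CPM (vertical axes, each from 0) by group (horizontal axes), with 1 point per library, the group mean as a horizontal bar and the SD as a vertical line. Reloading libraries stand far above the others for Dnaja4 and Dnajb1 (449.9 CPM or more for Dnaja4), and the Reloading levels of Hsf1, between 53.1 and 54.0 CPM, lie within the Control range.

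Dnaja4, a class A J-protein of the cytosol, lies on chromosome 9 of the mouse genome build GRCm38 (chr9:54698873-54716315, plus strand). Its level was 51.2, 51.3, 50.9 and 59.6 CPM in Control 1 to Control 4, 50.8 and 49.8 CPM in Unloading, and 592, 519 and 449.9 CPM in Reloading 1 to Reloading 3. The 6 Control and Unloading libraries were nearly alike, and every Reloading library lay far above them. The log2 fold change for Reloading against Unloading was 3.37 ± 0.12 (SE), a 10.4-fold rise (adjusted p = 1.44e-10). In rank of log2 fold change Dnaja4 stood at place 86 of the 14851 tested genes. Of the exon length of Dnaja4, 44.1% overlaps Wdr61 on the opposite strand, and the authors' counting did not use strand. Wdr61 lay between 13.8 and 16.9 CPM in all 9 libraries, with no group apart from the others.

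Dnajb1, the classical heat-inducible HSP40 of class B, was the other strongly higher gene (chr8:83608193-83612653, plus strand). It had 4.51, 5.39, 8.15 and 6.18 CPM in Control, 5.02 and 6.72 CPM in Unloading, and 59.6, 57.6 and 44.3 CPM in Reloading. It was the scarcest of the 10 genes in muscle that had not been reloaded, with 40 to 123 read pairs per library there against 669 to 796 in Reloading. The log2 fold change was 3.18 ± 0.20, a 9.04-fold rise (adjusted p = 3.95e-08).

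Bag3 (chr7:128523616-128546981, plus strand) followed. Its level was 106, 132, 128 and 117 CPM in Control, 92.0 and 97.0 CPM in Unloading, and 412, 336 and 265 CPM in Reloading. The groups did not overlap, and the Reloading libraries spread more than for most of the other genes, with Reloading 1 at 1.56 times the level of Reloading 3. The log2 fold change was 1.83 ± 0.15 (adjusted p = 4.83e-07), and it was 1.66 without Control 2 and Reloading 1.

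Dnaja1 (chr4:40722150-40737149, plus strand) codes for a class A J-protein that serves HSP70 in the cytosol and is tethered to membranes by a lipid tail. It had 38.2, 33.1, 34.7 and 35.8 CPM in Control, 32.1 and 31.3 CPM in Unloading, and 94.1, 84.3 and 75.1 CPM in Reloading. No Reloading library came near the range of the other groups. The log2 fold change was 1.41 ± 0.10, a 2.66-fold rise (adjusted p = 1.39e-07). Exons of Smu1 on the opposite strand and of the microRNA gene Mir207 cover 7.90% of its exon length.

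The class B genes Dnajb2 and Dnajb4 rose by less. DNAJB2 carries ubiquitin-interacting motifs and steers clients towards the proteasome, and its gene (chr1:75236406-75245692, plus strand) had 72.2 to 84.0 CPM in Control, 68.7 and 81.5 CPM in Unloading, and 145, 138 and 125 CPM in Reloading. Loss of DNAJB4 is a known cause of muscle disease, and Dnajb4 (chr3:152178511-152210302, minus strand) had 58.3 to 66.4 CPM in Control, 51.8 and 49.9 CPM in Unloading, and 78.5, 89.9 and 87.2 CPM in Reloading. For both genes the lowest Reloading library lay above the highest library of the other groups. The log2 fold changes were 0.85 ± 0.10 for Dnajb2 (adjusted p = 1.05e-05) and 0.75 ± 0.09 for Dnajb4 (adjusted p = 1.44e-05).

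Hsf1 (chr15:76477422-76501913, plus strand), the regulator itself, moved little. It had 45.8, 50.3, 54.8 and 48.1 CPM in Control, 43.4 and 46.9 CPM in Unloading, and 54.0, 53.7 and 53.1 CPM in Reloading. The Reloading libraries were above both Unloading libraries and inside the Control range. The log2 fold change of 0.25 ± 0.09 passed the threshold (adjusted p = 0.0354), but the call was lost in 10 of the 18 alternatives, among them DESeq2 (adjusted p = 0.113) and the fit without Control 2 and Reloading 1 (adjusted p = 0.0861). It was also lost without each of the Unloading and Reloading libraries in turn, with adjusted p between 0.0568 and 0.223.

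Dnaja2 and Dnajb6 were lower after reloading. DNAJA2 is an abundant class A J-protein with a strong role in refolding, and Dnaja2 (chr8:85537633-85555344, minus strand) had 285, 264, 268 and 305 CPM in Control, 292 and 306 CPM in Unloading, and 217, 234 and 256 CPM in Reloading. DNAJB6 holds back protein aggregation and sits at the Z-disc, where mutations in it cause limb-girdle muscular dystrophy. Dnajb6 (chr5:29735688-29818134, plus strand) had 54.4, 59.1, 59.2 and 59.7 CPM in Control, 67.8 and 72.0 CPM in Unloading, and 58.2, 55.7 and 59.6 CPM in Reloading. For both genes all Reloading libraries lay below both Unloading libraries. The log2 fold changes were -0.34 ± 0.09 for Dnaja2 (adjusted p = 0.00586) and -0.27 ± 0.08 for Dnajb6 (adjusted p = 0.0108). These modest differences depend on the scaling. Both calls were kept with DESeq2 and with its type of size factors (RLE) in edgeR, where Dnaja2 stood at -0.36 (adjusted p = 0.00460). With libraries scaled to their totals alone, which moves the median of all tested genes by 0.27, the differences were -0.10 and -0.03 and passed no threshold. Both calls were also lost without Unloading 2 (adjusted p = 0.0519 and 0.0875).

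Dnajb5 (chr4:42949814-42959425, plus strand), a class B gene whose protein has been found in complex with a histone deacetylase in heart muscle, did not pass the test. It had 211 and 219 CPM in Unloading and 194, 209 and 218 CPM in Reloading, and these ranges overlapped. The log2 fold change was -0.06, with a 95% confidence interval of -0.22 to 0.11, and it was 0.19 with libraries scaled to their totals alone (adjusted p = 0.0534).

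**Figure D2:**
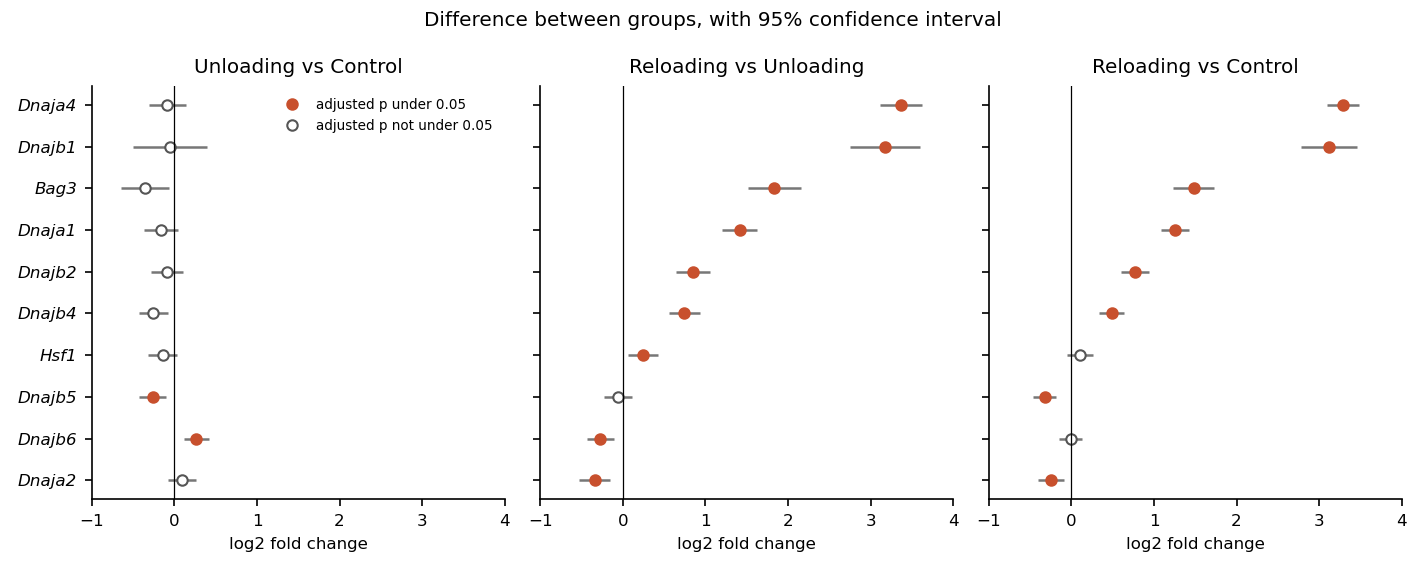
Log2 fold change (horizontal axes) of the 10 genes with its 95% confidence interval in the 3 comparisons, filled where the adjusted p was under 0.05. Intervals for Reloading against Unloading run from above 3 for Dnaja4 to below 0 for Dnaja2, while all Unloading against Control values lie between -0.35 and 0.27.

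The 10 days of unloading moved these genes far less. In Unloading against Control, 1 of the 10 genes was higher (Dnajb6), 1 was lower (Dnajb5) and 8 did not pass the test, where 4.40% of all tested genes were higher and 5.50% were lower. Dnajb6 rose by a log2 fold change of 0.27 ± 0.07 (adjusted p = 0.0309), and both Unloading libraries lay above all 4 Control libraries. Dnajb5 had 240, 265, 270 and 260 CPM in Control, all above its levels in Unloading, and fell by 0.27 on the log2 scale (adjusted p = 0.0351). Neither call was stable, and without Control 2 and Reloading 1 both were lost (adjusted p = 0.0595 for Dnajb6 and 0.0612 for Dnajb5). Dnajb6 lost it without either Unloading library or without Control 1, Control 2 or Control 3 (adjusted p of 0.0551 to 0.166), and Dnajb5 lost it without either Unloading library, Control 2, Control 3, Control 4 or Reloading 2 (adjusted p of 0.0569 to 0.290).

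The Unloading against Control difference of Bag3 was -0.35, with a 95% confidence interval of -0.65 to -0.06 and an adjusted p of 0.114, and both Unloading libraries were below every Control library. It passed the threshold in 5 of the 18 alternatives, among them the fit to these 2 groups alone (adjusted p = 0.0308), the fit without a filter on low counts (adjusted p = 0.00734) and those without Reloading 1 or Reloading 3 (adjusted p = 0.0474 and 0.0434). Dnajb4 stood at -0.26 (interval -0.43 to -0.08, adjusted p = 0.0659), also without overlap between the groups. Dnaja1, Hsf1, Dnaja4 and Dnajb2 stood between -0.16 and -0.08 and Dnaja2 at 0.09. The groups did not overlap for Dnaja1 and Dnaja4 either (adjusted p = 0.326 and 0.666). With 2 Unloading libraries a lack of overlap says little. The interval of Dnajb1, from -0.51 to 0.40, was the widest of the 10. In this comparison the number of all genes called was itself set by single libraries, with 1470 in all, 949 without Control 3 and 121 without Unloading 1.

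Against Control, Reloading muscle was still changed in 8 of the 10 genes. In Reloading against Control 6 genes were higher and 2 were lower, where 22.1% and 21.3% of all tested genes were. This comparison shares the Reloading libraries with the one above, so its values are not a separate observation of the rise. Without Control 2 and Reloading 1 the counts were again 6 and 2, beside 2523 and 2559 of all 14765 genes then tested. The log2 fold changes were 3.29 ± 0.09 for Dnaja4, 3.12 ± 0.16 for Dnajb1, 1.48 ± 0.12 for Bag3, 1.26 ± 0.08 for Dnaja1, 0.77 ± 0.08 for Dnajb2 and 0.49 ± 0.07 for Dnajb4, with adjusted p of 6.19e-05 at most. Dnajb5 was lower by -0.32 ± 0.07 (adjusted p = 0.00100) and Dnaja2 by -0.25 ± 0.07 (adjusted p = 0.0119). The Dnaja2 call was lost without Reloading 1 (adjusted p = 0.0707), and with libraries scaled to their totals the 2 values were -0.08 and -0.01, neither of them past the threshold.

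Hsf1 and Dnajb6 did not differ from Control beyond the spread of the libraries under TMM. The difference was 0.10 for Hsf1, with an interval of -0.05 to 0.26, and -0.01 for Dnajb6, with an interval of -0.15 to 0.13. With libraries scaled to their totals both were higher than in Control, by 0.34 (adjusted p = 0.00112) and 0.23 (adjusted p = 0.00618).

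The 3 Reloading libraries did not respond equally. Reloading 1 was the highest and Reloading 3 the lowest for Dnaja4, Dnajb1, Bag3, Dnaja1, Dnajb2 and Hsf1, which are 6 of the 7 higher genes. For Hsf1 the 3 libraries were nearly equal, with Reloading 1 at 1.02 times the level of Reloading 3. Dnajb4 was lowest in Reloading 1, and so were Dnaja2 and Dnajb5. Of all tested genes 19.8% had the order Reloading 1, Reloading 2, Reloading 3 from high to low. The ratio of Reloading 1 to Reloading 3 ran from 0.845 for Dnaja2 to 1.56 for Bag3. Reloading 1 is the library that held skin transcripts, and whether these bear on the order was not tested.

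Levels of different genes can be compared only per length, and transcripts per 1000000 (TPM), which divide the counts by exon length and then by the library's sum, were used for that. In Control the order was Dnaja2 (232 ± 14.2 TPM, SD, n = 4), Bag3 (116 ± 11.1), Dnajb5 (107 ± 5.17), Dnajb2 (46.1 ± 2.54), Dnaja4 (36.5 ± 2.50), Dnajb6 (23.6 ± 0.866), Hsf1 (17.3 ± 1.43), Dnajb4 (17.0 ± 0.873), Dnaja1 (10.1 ± 0.703) and Dnajb1 (4.65 ± 1.22). Bag3 and Dnajb5 overlapped there, and so did Hsf1 and Dnajb4. The same order held in Unloading, with Bag3 (93.7 and 94.3 TPM) just above Dnajb5 (92.9 and 92.0 TPM). In Reloading the order changed at the top and at the bottom. Dnaja4 (466 ± 64.8 TPM, SD, n = 3) and Bag3 (423 ± 93.5), whose ranges overlapped, stood above Dnaja2 (254 ± 20.9), and Dnajb1 (54.0 ± 8.44) was no longer last but above Dnaja1 (31.5 ± 3.63), Dnajb4 (31.2 ± 2.11), Dnajb6 (30.6 ± 1.06) and Hsf1 (24.3 ± 0.263). The ranges of Dnaja1 and Dnajb4 overlapped, as did those of Dnajb4 and Dnajb6 and those of Dnajb5 (112 ± 6.20) and Dnajb2 (103 ± 7.80). The order depends on the length taken for each gene. The exon length used here is 3.56 times that of the longest coding transcript for Dnajb4 and 3.37 times for Hsf1, against 1.00 for Bag3 and 1.02 for Dnaja2. With the longest coding transcript as length, Dnajb5 stood above Bag3 in Control and Unloading, and Dnajb4 and Hsf1 stood above Dnaja4 there and above Dnajb1 and Dnaja1 in Reloading. Dnajb1 was then second to last in Reloading, below Dnajb6, with a range that overlapped those of Dnajb6 and Dnaja1. Dnaja2 in the lead in Control and Unloading, and Dnaja4 and Bag3 above Dnaja2 in Reloading, held with both lengths. The Dnaja4 level is divided by its whole exon length, of which 44.1% overlaps Wdr61. How read pairs in that stretch were assigned was not examined, so its level and place against genes without overlap are uncertain. TPM carry no TMM scaling, so their differences between groups are not those of the tests.

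The make-up of the DNAJ transcript pool changed accordingly. Taking the summed TPM of the 37 tested DNAJ genes in a library as the pool, Dnaja2 was the leading gene in Control with 20.0% ± 0.878 (SD, n = 4) and in Unloading with 21.3% ± 0.382 (SD, n = 2). Dnaja4 held 3.15% ± 0.189 in Control and 2.90% and 3.03% in Unloading. In Reloading Dnaja4 held 25.8%, 23.6% and 20.8% and Dnaja2 11.4%, 12.8% and 14.3%, so Dnaja4 was the leading gene of the pool in each of the 3 libraries. The share of Dnajb1 went from 0.402% ± 0.107 in Control to 2.71% ± 0.359 in Reloading, and that of Dnajb5 from 9.27% ± 0.581 to 5.65% ± 0.503. A share of a pool falls when another gene of the pool rises, and the shares were not tested. The size of the Dnaja4 share carries the same uncertainty from its overlap with Wdr61.

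**Figure D3:**
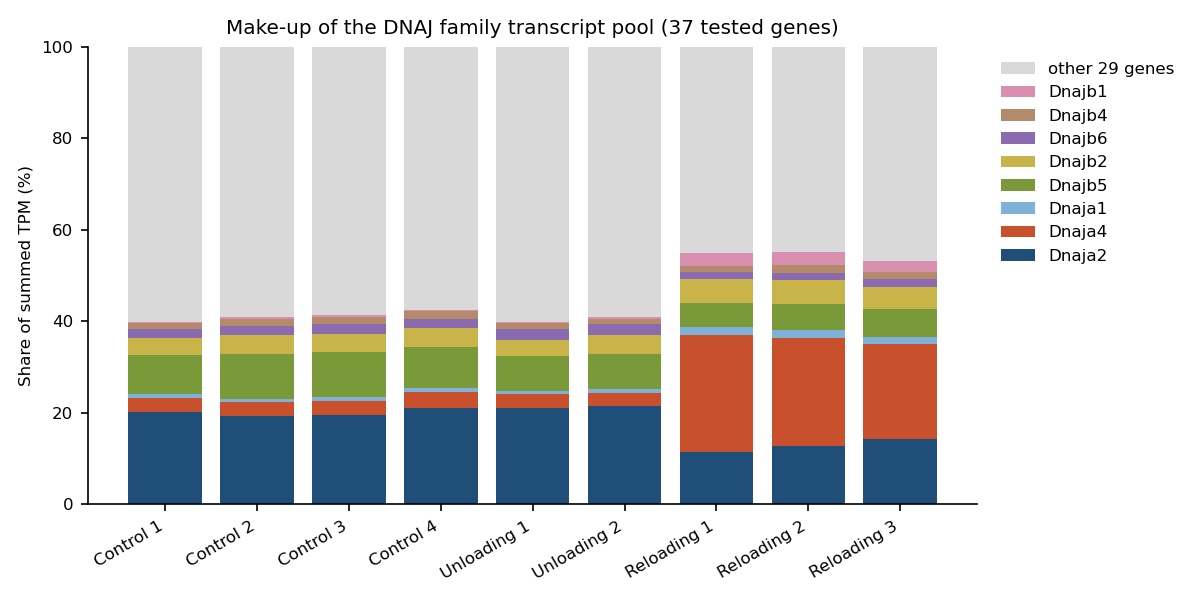
Share of the summed TPM of the 37 tested DNAJ genes (vertical axis, percent) held by each of the 8 named genes and by the other 29 together, with 1 bar per library. The Dnaja4 segment widens from about 3% in the 6 Control and Unloading libraries to between 20.8% and 25.8% in the 3 Reloading libraries.

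In the rest of the family changes went both ways. A further 35 DNAJ genes were counted, of which 29 were tested, and Dnajb3, Dnajb7, Dnajb8, Dnajb13, Dnajc6 and Dnajc22 had too few read pairs, at most 13 over all libraries. In Reloading against Unloading 7 were higher, 9 were lower and 13 did not pass, and their median log2 fold change was -0.10, where 18.5% of all tested genes were higher and 19.0% were lower. The number of higher genes was 2 to 5 in 13 of the 18 alternatives, with 3 under DESeq2, 3 without Reloading 1 and 4 without Reloading 3. Higher calls among all genes were also fewer there, with 1874 of 34376, 2270 of 14692 and 2535 of 14663. The main fit had 2743 of 14851. The largest rise was that of Dnajb9, an endoplasmic reticulum gene of the unfolded protein response. Dnajb9 had 46.1 and 40.7 CPM in Unloading and 119, 95.5 and 88.1 CPM in Reloading, with a log2 fold change of 1.22 (adjusted p = 1.99e-06). Dnajb11, another endoplasmic reticulum co-chaperone, rose by 0.56 (adjusted p = 0.000326), and Dnaja3, the J-protein of mitochondria, by 0.36 (adjusted p = 0.00327).

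Counts by class cover all 37 tested DNAJ genes, the 29 others together with the 8 picked by name. By class, 3 of 4 class A, 5 of 9 class B and 4 of 24 class C genes were higher in Reloading than in Unloading. Lower were 1, 2 and 8, with the same 18.5% and 19.0% of all tested genes called. Among the lower class C genes were Dnajc9, a histone co-chaperone, at -0.80 (adjusted p = 0.000467), Dnajc21, which takes part in ribosome maturation, at -0.71 (adjusted p = 0.000198), and Dnajc28 at -0.55 (adjusted p = 0.000465). In Unloading against Control, where 4.40% of all tested genes were higher and 5.50% lower, none of the 29 was higher and 1 was lower by edgeR, Dnajc15, a mitochondrial inner membrane J-protein, at -0.31 (adjusted p = 0.0251). DESeq2 called 0 higher and 2 lower, beside 652 and 663 of all 34376 genes it was given. At an unadjusted p under 0.05 edgeR had 6 higher and 3 lower of the 29. The share of all tested genes at that looser limit was not counted, so these numbers cannot be set beside 4.40% and 5.50%. In Reloading against Control 4 were higher and 11 were lower, beside 22.1% and 21.3% of all tested genes. The 3 largest rises there were Dnajb9 (1.36), Dnajb11 (0.53) and Dnajc3 (0.35), an inhibitor of the stress kinases that act on translation, and the 3 largest falls were Dnajc28 (-0.67), Dnajc15 (-0.63) and Dnajc19 (-0.59), a part of the mitochondrial import machinery. With libraries scaled to their totals 13 were higher and 3 were lower in that comparison. Of all 14851 tested genes 6028 were then higher and 1484 lower.

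**Figure D4:**
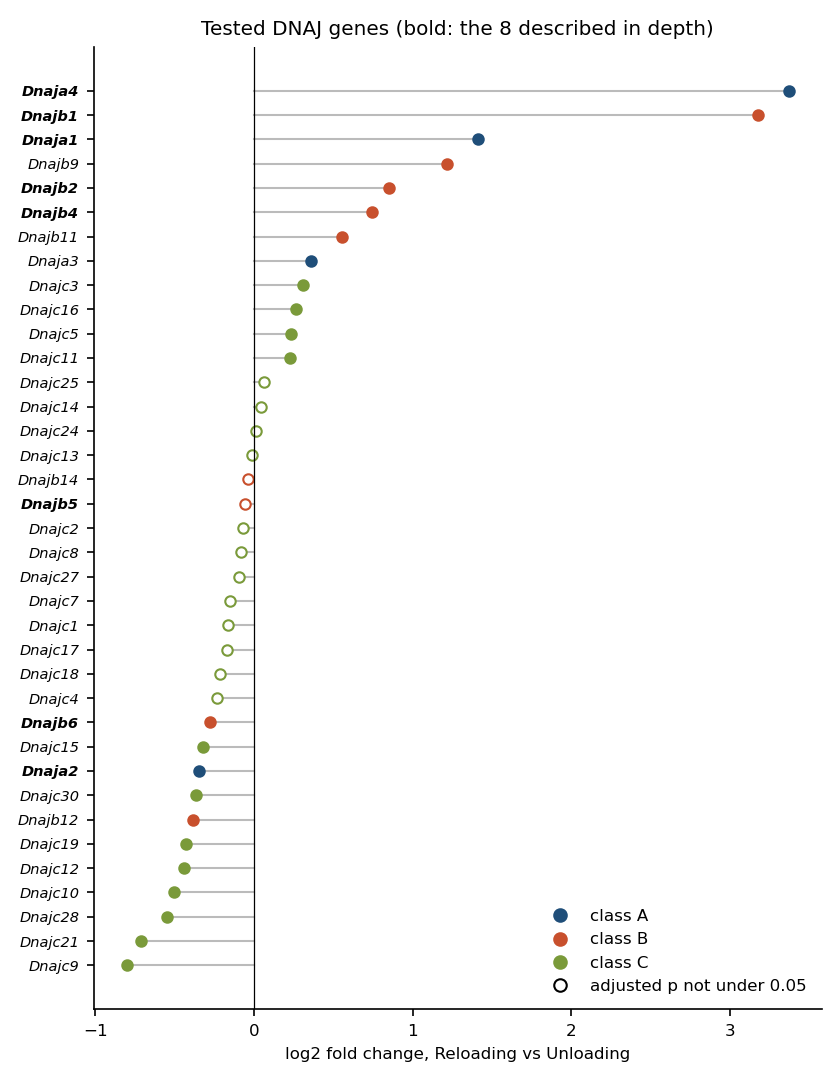
Log2 fold change for Reloading against Unloading (horizontal axis) of the 37 tested DNAJ genes, coloured by class and filled where the adjusted p was under 0.05. Dnaja4 and Dnajb1 stand alone above 3, and the class C genes lie between -0.80 and 0.31.

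The relatives of Bag3 were called about as often as all tested genes, of which 18.5% were higher and 19.0% lower. Of the 5 other BAG genes tested, 1 was higher and 1 was lower in Reloading than in Unloading. Bag2 rose by 0.47 (adjusted p = 0.00439), Bag1 fell by 0.43 on the log2 scale (adjusted p = 0.000628), and Bag4, Bag5 and Bag6 did not pass the test. In Unloading against Control the 5 lay between -0.33 and 0.25, with adjusted p of 0.0675 or more. Among 8 further nucleotide exchange factors of HSP70, 4 rose in Reloading against Unloading, where 18.5% of all tested genes did, and 4 did not pass the test. The higher ones were Hsph1 (2.37), which acts with J-proteins in pulling aggregates apart, Hyou1 (1.43) of the endoplasmic reticulum, Hspa4l (0.82) and Hspa4 (0.39), with adjusted p of 0.00260 at most. Hsph1 was also lower in Unloading than in Control, by -0.48 (adjusted p = 0.0193).

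Genes for proteins that BAG3 is known to work with were counted next. Of 8 such genes 4 were higher in Reloading than in Unloading, 1 was lower and 3 did not pass, beside 18.5% and 19.0% of all tested genes. Flnc, the muscle filamin cleared by the BAG3 pathway, rose by 3.68 (adjusted p = 3.32e-09), Hspb8, the small heat shock protein bound by BAG3, by 1.80 (adjusted p = 6.39e-07), Hspa8, the constitutive HSP70, by 1.41 (adjusted p = 5.14e-07) and the autophagy receptor Sqstm1 by 0.50 (adjusted p = 0.00215). Rab7 was lower by -0.27 (adjusted p = 0.0453). Stub1, the ubiquitin ligase of the complex, stood at -0.05, Synpo2 at 0.15 and Tardbp at 0.11, and none of these passed.

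Known HSF1 target genes rose widely beside the small difference in Hsf1 itself. All 16 such genes on the list were higher in Reloading than in Unloading, where 18.5% of all tested genes were, with a median log2 fold change of 1.41. The inducible HSP70 genes Hspa1b and Hspa1a rose by 6.94 and 6.37, Hspb1 by 3.86, Cryab by 3.56 and Hsp90aa1 by 2.57. Hspa1a and Hspa1b are near-identical copies, so how their reads divide between them is uncertain. In Unloading against Control 4 of the 16 were lower (Hsph1, Hspa8, Cacybp and Stip1, from -0.48 to -0.30) and 12 did not pass, beside 5.50% of all tested genes lower. In Reloading against Control 15 were higher, beside 22.1% of all tested genes, and Cacybp did not pass the test (0.08). Of the 4 other genes tested around Hsf1, 1 was higher and 1 lower in Reloading than in Unloading, beside 18.5% and 19.0% of all tested genes. Hsf2bp was higher (2.09, adjusted p = 0.00320), but at a very low level, with means of 1.63 CPM in Reloading and 0.358 CPM in Unloading. Hsbp1, which binds the HSF1 trimer, was lower (-0.30, adjusted p = 0.00875), while Hsf2 and Hsf4 did not pass.

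Because HSF1 binds heat shock elements, which are inverted repeats of the bases GAA, the promoter windows of the 10 genes were searched for GAANNTTC and TTCNNGAA. A RefSeq window of the build GRCm38.p6 reaches from 250 bases before to 50 bases after a transcription start, and 18 windows of 9 of the genes were found, with no entry for Hsf1. Each motif reads the same on both strands, and the pair can overlap in a run of 3 alternating units. Among 27025 genes with a window 17.0% held at least 1 match and 0.662% a run of 3 units, and among the 28 other DNAJ genes with a window 2 held a match. Of the 9 genes 5 held a match and 1 a run. Genes with several starts have more windows, and a match is only a description of the letters. The matches are shown 5′ to 3′ on the gene's strand, with the matching letters in capitals, because they lie in genes that rose and in 1 that fell.
Dnaja4 at chr9:54699458-54699487: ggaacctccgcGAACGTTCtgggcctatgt
Dnaja4 at chr9:54699496-54699525: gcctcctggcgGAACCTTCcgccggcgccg
Dnaja1 at chr4:40722333-40722362: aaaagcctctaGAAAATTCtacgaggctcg
Dnajb4 at chr3:152193841-152193870: ttcgttcgctgTTCTAGAAagtacagagac
Dnajb6 at chr5:29735841-29735870: ctcagctccgaGAATCTTCCGGAAcgctag
Bag3 at chr7:128523614-128523632: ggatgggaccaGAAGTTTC

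The Dnaja4 matches begin 90 and 52 bases before a downstream start of the gene, within an intron of its longer transcript. The Dnajb4 match begins 14 bases before a downstream start, also in an intron, and the Dnaja1 match 124 bases before the first start in RefSeq, within the Dnaja1 gene of the count table and in an exon of the noncoding gene Gm6297 on the opposite strand. The Dnajb6 run begins 46 bases before the first of its starts, in a stretch that also codes for Gm5129 on the opposite strand, and Dnajb6 was one of the lower genes. The single Bag3 match begins 42 bases after the start, in the 5′ untranslated region. Neither window of Dnajb1, which rose 9.04-fold, held these letters, and nor did those of Dnajb2, Dnajb5 and Dnaja2. The 120 bases before its first start are shown for Dnajb1 as the strongly higher gene without a match, in a stretch with no annotated exon.
Dnajb1 at chr8:83608055-83608174: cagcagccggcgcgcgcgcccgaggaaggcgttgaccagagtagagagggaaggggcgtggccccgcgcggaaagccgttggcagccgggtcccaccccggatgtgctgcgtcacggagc

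Genes with the most similar pattern over the 9 libraries were sought for 4 of the genes among 14850 others, by the root mean square difference of the log2 CPM centred on each gene's own mean. For Dnaja4 they were Cryab (0.0985), a small heat shock protein, Rgcc (0.148) and 4933427I22Rik (0.195). For Bag3 they were Klhl30 (0.0915), Hspb8 (0.106) and Pdgfb (0.109). For Dnajb1 the nearest were Rgcc (0.181), Srxn1 (0.247) and Dnaja4 (0.248), on a range of 3.68 between its highest and lowest library. For Hsf1 they were Tatdn2 (0.0350), Rcc1 (0.0424) and Ctsa (0.0473), but its whole range was only 0.34 and 263 genes lay within 0.1 of it, so its nearest genes say little. All 9 libraries enter each distance, and the 3 Reloading libraries set most of it for the strongly higher genes.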

How the data were processed

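RNA-seq of gastrocnemius muscle from 4 Control, 2 Unloading and 3 Reloading mice was used. The authors aligned reads with STAR to GRCm38 and used featureCounts 2.0.3 with the Ensembl 102 genes, without strand, to count read pairs, and the deposited table holds these raw counts and the exon length per gene. Per the labels reads were paired-end, while the study's methods say single reads. The deposited DESeq2 tables hold the authors' fold changes and p-values, which were not used beyond gene symbols.

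Counts were tested with edgeR 4.0.16 (filterByExpr, minimum count 10, minimum total 15, TMM, quasi-likelihood F-test, two-sided) in 1 fit to all 9 libraries with group as the only term. Benjamini-Hochberg adjustment ran over 14851 genes within each comparison, with a threshold of 0.05. They measure the spread between the mice sampled. Log2 CPM for the pattern distances used a prior count of 2. DESeq2 1.42.0, other scalings, filters, blocks and left-out libraries were alternatives. The procedure was tested on simulated data.

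Title numbers did not pair libraries. The 3 Control and Reloading pairs that share a number in the sample descriptions had correlations of their deviations of 0.361, 0.143 and 0.155. Pairs with an Unloading library had 0.0172 to 0.0752. No label says what these numbers mark. The 0.361 belongs to Control 2 and Reloading 1, the libraries that held skin transcripts, and whether these bear on it was not tested.

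The genes, gene lists and the rule for named genes (all 10 genes, and of the other DNAJ genes the 3 with the largest change each way among those called) were chosen with earlier results of these data known. Some genes of these lists are not reported here and were left out of the counts.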

Additional observations from a re-analysis of the deposited data

Results flagged for a closer look

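In each of the 10 genes the 4 Control libraries were checked for a library far from the others, by the gap to its nearest neighbour as a share of the group's range, for which chance passes Dixon's limit in about 1 group in 20. Control 4 stood apart as the highest for Dnaja4, at 59.6 CPM where the remaining Control libraries had 50.9 to 51.3 CPM, and for Dnajb4, at 66.4 CPM against 58.3 to 59.7 CPM, where the gap was just at the limit. Control 1, the library with the fewest read pairs, stood apart as the lowest for Dnajb6, at 54.4 CPM against 59.1 to 59.7 CPM. Groups of 2 and 3 libraries are too small for this check.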

How the results depend on the processing

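The differences of the 10 genes in the 3 comparisons were recomputed under 18 alternatives, which gave 540 values. Direction and side of the threshold were kept in 487 of them, and with the same sign 36 lost a call and 6 gained one. The remaining 11 changed sign and were counted as that alone. Among them Dnajb6 in Reloading against Control also gained a call with library totals (0.23, adjusted p = 0.00618). The rises of Dnaja4, Dnajb1, Bag3, Dnaja1, Dnajb2 and Dnajb4 in Reloading kept their calls in all 18. Each of the calls on changes under 0.4 on the log2 scale was lost in at least 1 alternative. For Dnajb5 in Reloading against Control that was 1 of the 18, the scaling to library totals. The cause of the changes below was not tested, except that left-out libraries leave fewer samples.

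With libraries scaled to their totals alone, 0 of the 10 genes were lower in either Reloading comparison, and 82.8% of all calls were higher for Reloading against Unloading (49.3% with TMM) and 80.2% for Reloading against Control (50.9% with TMM). Reloading against Unloading was then -0.10 for Dnaja2, -0.0259 for Dnajb6 and 0.19 for Dnajb5, with 4 other DNAJ genes lower. Reloading against Control was -0.0114 for Dnaja2, -0.0827 for Dnajb5, 0.23 for Dnajb6 and 0.34 for Hsf1. There 13 other DNAJ genes were higher and 3 lower, and 3 were lower in Unloading against Control. Of all 14851 tested genes 5250 were higher and 1090 lower for Reloading against Unloading with this scaling. The counts were 6028 and 1484 for Reloading against Control, and 858 were lower for Unloading against Control.

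For Hsf1, Reloading against Unloading was 0.22 with DESeq2, without a filter on low counts and with a replicate block by title numbers, 0.17 with a block by description numbers and 0.24 without Control 2 and Reloading 1. Other DNAJ genes higher in that comparison were 3 with DESeq2 and 3 without Control 2 and Reloading 1. They were 4 with RLE (DESeq2-type) size factors, without the filter, with only the 2 groups and with the title block. Of all genes 1874 were higher with DESeq2 and 2281 without Control 2 and Reloading 1. In the remaining 4 settings 2614, 2600, 2751 and 2548 were higher, and 2743 in the main fit.

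For Unloading against Control, members higher were 0 with only the 2 groups, with the title block and without Control 2 and Reloading 1. Members lower were 2, 0 and 0. In the same order 599 of 14207, 475 of 14851 and 495 of 14765 tested genes were higher, and 766, 567 and 626 were lower. Dnajb6 was then 0.26, 0.30 and 0.27. Dnajb5 was -0.23 without the filter and with the title block, -0.21 with the description block and -0.25 without Control 2 and Reloading 1. Bag3 was -0.32 without the filter, -0.36 with the 2 groups and -0.41 with the description block, under which Dnajb1 was 0.0382. Other DNAJ genes higher were 2 without the filter and 1 with the description block, beside 1072 and 682 of all genes. Those lower were 2 with DESeq2, 0 without the filter, 3 with the robust fit and 0 with the title block. Of all genes 663, 950, 914 and 567 were lower in these settings.

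For Reloading against Control, 1 member was lower with the title block, beside 2845 of all 14851 tested genes. Dnaja2 was -0.21 under that block. Dnajb6 was 0.0002 without the filter, 0.0013 with the 2 groups and 0.0061 with the title block. The replicate block by description numbers, which groups libraries with the same number, gave 6632 genes past the threshold against 6456. It changed no call of the 10 genes in that comparison. The title numbers did not pair the libraries (correlations of -0.201 to 0.0752), and the title block gave 5705.

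Leaving out 1 library at a time, members lower in Reloading against Unloading were 0 to 2 and other DNAJ genes higher 2 to 7, with Dnaja2 at -0.41 to -0.29, Dnajb6 at -0.32 to -0.24 and Hsf1 at 0.19 to 0.30. In Unloading against Control 121 to 1518 genes were past the threshold, members higher were 0 to 1, members lower 0 to 2 and other DNAJ genes lower 0 to 2, with Dnajb1 at -0.30 to 0.14, Dnajb2 at -0.22 to 0.0340, Dnajb5 at -0.30 to -0.24, Dnajb6 at 0.22 to 0.31 and Bag3 at -0.41 to -0.31. In Reloading against Control members lower were 1 to 2, with Dnaja2 at -0.31 to -0.19 and Dnajb6 at -0.0374 to 0.0144. A lone Unloading library was assumed to vary like the other groups.

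The order of the per-length levels with the longest coding transcript as length, given in the report, was also chosen after seeing the data. Of the 8 named DNAJ genes alone, Dnaja2 held 48.6% in Control, 52.5% in Unloading and 23.6% in Reloading, and Dnaja4 7.64%, 7.33% and 42.9%. With the longest coding transcript as length, an alternative chosen after seeing the data, Dnaja2 held 13.9%, 14.6% and 9.31% of the pool and Dnaja4 2.56%, 2.39% and 19.9%. With a run of 3 units in place of 2, 1 instead of 5 of the 9 genes with a window held the letters. Among all 27025 genes with a window 0.662% held such a run and 17.0% a match of 2 units.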
